A study of Mus musculus with 6 samples.

Results

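Cytosolic ribosomal protein genes were examined in thymic iNKT1 cells with and without a floxed Tgfbr2 gene, and it was asked whether the low Rpl29 level of the floxed group stood alone among them. Members were the rows of the deposited gene table typed as protein_coding whose symbol follows the naming of ribosomal proteins of the large (Rpl, Rplp) or small (Rps, Rpsa) subunit, without the Rps6k kinases and without pseudogene names. The rule found 84 of 17985 genes, 49 of the large and 35 of the small subunit. Rpl29 had been singled out on its difference between the groups, so its values, and those of its copy Gm8210, are a description and carry no test.

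iNKT1 cells are the subset of invariant natural killer T lymphocytes that expresses T-bet, and were taken from the thymus of untreated C57BL/6-background mice. Mice of the control group (Ctrl) had the Tbx21CreTg transgene, a Cre recombinase under control of Tbx21, with Rosa26-LSL-YFP+/+, a yellow fluorescent reporter that Cre switches on. The conditional knockout group (cKO) carried the same transgene and reporter together with Tgfbr2F/F, floxed alleles of a TGF-beta receptor subunit, so that Cre and the reporter are shared by both groups. Age was not given, and each group had 3 libraries, which nothing in the labels ties to separate animals, so the p-values measure the spread between these libraries.

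The cytosolic ribosome is built from ribosomal RNA and a fixed set of proteins, nearly all present once per particle, and the genes for these proteins are among the most strongly transcribed in growing cells. Their messenger RNAs typically begin with a run of pyrimidines, the terminal oligopyrimidine (TOP) motif, through which mTOR signalling adjusts their translation as a group. Ribosomal protein messages have also been copied back into the genome many times as intronless processed pseudogenes, so that short reads from one gene can match several places. Rpl29 encodes eL29, a small, basic protein at the surface of the large subunit, and mice that lack it are viable but small.

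The libraries held 28832779 to 68092478 reads, and levels are in CPM, reads scaled to a common library total. Replicate 3 of both groups stood apart from the other libraries: 4406 genes were at 0 in Ctrl replicate 3 and 4590 in cKO replicate 3, against 0 to 5 in the other 4, and the first principal component, with 85.1% of the variance, separated them. Results for Rpl29 and for the members as a set are therefore given with and without replicate 3. Summed levels of 8 genes listed as iNKT1 markers ran from 6414 to 8329 CPM in Ctrl and from 6890 to 9594 in cKO. Among them Cd3e, a gene of T cells in general, was at 1125.5 to 1478.9 CPM, and Zbtb16 was at 41.8 to 60.7 CPM. The sum alone therefore does not set iNKT1 cells apart from other T cells. Summed B cell, myeloid, erythroid and stromal marker levels were at most 16.1 CPM in any library. The double-positive thymocyte markers Rag1, Dntt, Cd8a and Cd8b1 summed to 7.14 to 9.19 CPM in Ctrl and to 10.2 to 14.9 in cKO, and their part in the results below was not tested. Testing used limma on log2(CPM + 1) over the 15691 genes that averaged 1 CPM or more, as all 84 members did, with Benjamini-Hochberg adjustment over those genes. The threshold was an adjusted p of 0.05, and differences between groups are on that log2 scale, which understates those of genes with low levels. Tgfbr2, the targeted gene, was at 461, 461 and 425 CPM in Ctrl and at 289.8, 258 and 274 CPM in cKO, so its mean fell to 61.0% of Ctrl (limma adjusted p = 0.0207), a call that held in 1 of the 6 fits that leave out a library.

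The names were checked against the GENCODE M21 annotation of GRCm38 by gene identifier. In 80 of the 84 rows the name and the protein_coding type agreed. Rps3a2, Rps3a3 and Rps4y2 (Rps4l in that release) are pseudogenes there, and the row named Rpl24 (ENSMUSG00000022601) is the zinc finger gene Zbtb11. The gene that M21 calls Rpl24 stood in the table in capitals as RPL24, outside the name rule, with 62.7, 63.5 and 70.0 CPM in Ctrl and 56.3, 60.6 and 92.1 CPM in cKO, groups that overlap. Leaving these 4 rows out changed the median difference of the members by less than the spread between replicates.

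Rpl29 (ENSMUSG00000048758) lies on the plus strand at chr9:106429454-106431568 of GRCm38 and has near-identical intronless copies elsewhere. Gm8210 (ENSMUSG00000094497), at chr1:43189156-43189638 on the plus strand, and Gm13841 (ENSMUSG00000083833), at chr5:115801677-115802159 on the minus strand, are annotated as pseudogenes and each covers the whole coding sequence of 483 bases. The copies had 0 differences from each other and 3 from Rpl29, all at the third base of a codon, so that a read is assigned to the gene or to a copy by these bases, by the exon junctions or by the bases outside the coding sequence. Positions are counted from the A of the start codon, and the gene's base is written first. The windows of 61 bases below, from the GENCODE M21 transcripts, show that base in capitals. They are printed because the separation of Rpl29 from its copies rests in part on them. These bases do not separate Gm8210 from Gm13841, which were the same in all 409 windows of 75 bases, the read length.
Rpl29, C72A, exon 3, chr9:106430312-106430372: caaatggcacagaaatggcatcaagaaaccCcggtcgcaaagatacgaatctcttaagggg
Gm8210, C72A, chr1:43189197-43189257: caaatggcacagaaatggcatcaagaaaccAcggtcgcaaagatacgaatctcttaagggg
Rpl29, C300T, exon 4, chr9:106431236-106431296: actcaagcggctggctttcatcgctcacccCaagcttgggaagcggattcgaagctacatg
Gm8210, C300T, chr1:43189425-43189485: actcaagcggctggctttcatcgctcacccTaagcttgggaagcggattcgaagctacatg
Rpl29, T423C, exon 4, chr9:106431359-106431419: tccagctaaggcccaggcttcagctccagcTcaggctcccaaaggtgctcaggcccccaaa
Gm8210, T423C, chr1:43189548-43189608: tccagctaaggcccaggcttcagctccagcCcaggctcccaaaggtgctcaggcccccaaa

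The codons at these places were CCC in Rpl29 and CCA in the copies, CCC and CCT, and GCT and GCC, which do not change the encoded amino acid. Of the 409 windows of 75 bases, the read length, that fit in the coding sequence, 201 (49.1%) were letter for letter the same in Rpl29 and in both copies. The transcript used, ENSMUST00000059802, has 710 bases in 4 exons with 2 junctions inside the coding sequence. Over the whole transcript, 56.8% of the 75-base windows also occurred in at least 1 other annotated gene. Such windows were found in 45 other genes, of which 6 had rows in the table.

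In order of replicate number, the Ctrl libraries had 155, 167 and 185 CPM of Rpl29 and the cKO libraries 14.6, 14.3 and 20.5 CPM. Every cKO library lay far below every Ctrl library: the lowest Ctrl value was 7.59 times the highest cKO value. The Ctrl mean was 169 ± 14.9 and the cKO mean 16.5 ± 3.50 CPM (SD, n = 3), which is 9.72% of Ctrl and a log2 difference of -3.30. Without replicate 3 the difference was -3.39, and within replicate 3 alone it was -3.11. Depth does not limit this value, since 5229, 5142 and 9796 reads stood against 420, 601 and 1395.

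Gm8210 went the opposite way. It had 6, 4 and 5 reads in Ctrl, or 0.178, 0.130 and 0.0944 CPM, and 478, 576 and 1551 reads in cKO, or 16.6, 13.7 and 22.8 CPM. In cKO the copy was thus at about the level of the gene itself, with means of 17.7 ± 4.64 and 16.5 ± 3.50 CPM (SD, n = 3). Its gain of 17.6 CPM came to 11.5% of the difference in Rpl29, which dropped by 152.7 CPM.

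Gm13841, the other copy with the same coding sequence, had 0.505, 1.23 and 0.680 CPM in Ctrl and 4.30, 3.59 and 4.83 CPM in cKO. Its groups did not overlap either, and its mean in cKO was 5.26 times that in Ctrl. Added together, Rpl29 and these 2 copies held 156, 168 and 186 CPM in Ctrl and 35.4, 31.6 and 48.1 CPM in cKO. The sum in cKO was 22.6% of that in Ctrl. Whether reads counted at the copies came from Rpl29 was not tested. Gm8210 and Gm13841 have the same bases, so a read within them cannot be placed at one rather than the other. Their separate levels therefore also depend on how such reads were assigned.

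**Figure D1:**
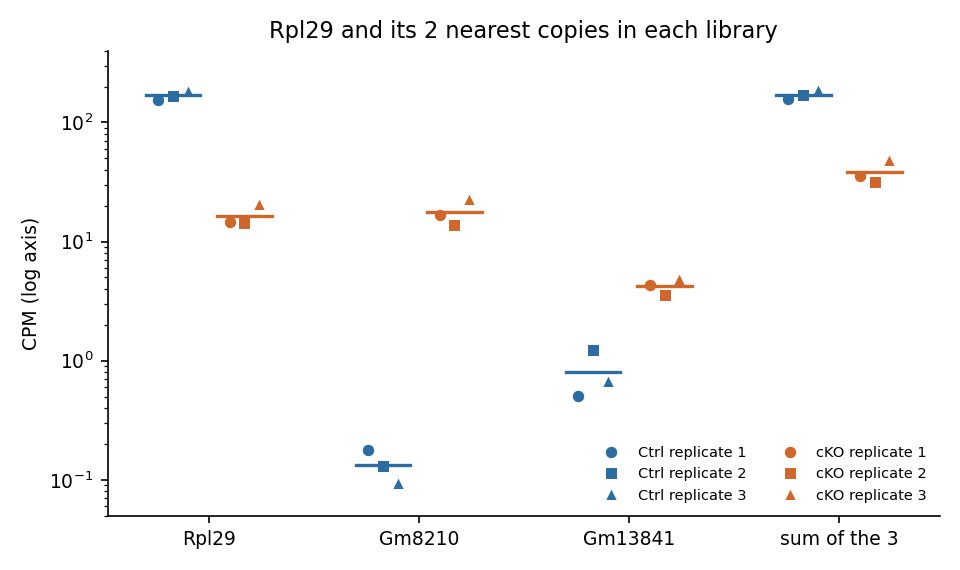
CPM on a log axis of Rpl29, of its copies Gm8210 and Gm13841 and of their sum in each of the 3 Ctrl (blue) and 3 cKO (orange) libraries; symbols mark the replicate number and bars the group mean. Rpl29 and the sum are lower in every cKO library than in any Ctrl library, and both copies are higher.

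The table held 7 copies of Rpl29 with at least 90% identity over at least 80% of their length. The other 5 had low levels and groups that overlapped. 4931440P22Rik averaged 1.11 CPM in Ctrl and 1.32 in cKO, and Gm10548 averaged 3.73 and 3.78 CPM. Gm12508, Gm13141 and Gm8832 were each under 1 CPM on average in both groups. Uimc1, a DNA repair gene in which 275 windows of Rpl29 also occur, was at 90.2, 82.3 and 97.4 CPM in Ctrl and 93.1, 81.6 and 75.6 CPM in cKO, and did not pass the test.

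Across the family, copies of this kind were common: 197 pseudogene rows matched 66 members by the same criteria, and their summed level was 499.7 CPM in Ctrl and 514.7 in cKO. Of the 130 tested copies other than Gm8210, 0 passed the threshold, against 0.663% of all tested genes. Of all 131 tested copies, 20 averaged 5 CPM or more in either group, so this count says little. With the replicate number as a block, where 2.87% of tested genes passed, 1 of the 130 did, Gm13841 (limma adjusted p = 0.00428, against 0.325 without the block). Gm13841 has the same bases as Gm8210, so this call is not separate from the values of Gm8210 and Rpl29. Among the 80 members whose annotation agreed, the share of shared windows ran from 0% for 3 members to 98.5% for Rps27, with a median of 48.2%, and 32 members had a larger share than Rpl29. Their log2 differences ran from -0.14 to 0.25, and 0 of the 32 passed the threshold, with or without the block.

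**Figure D2:**
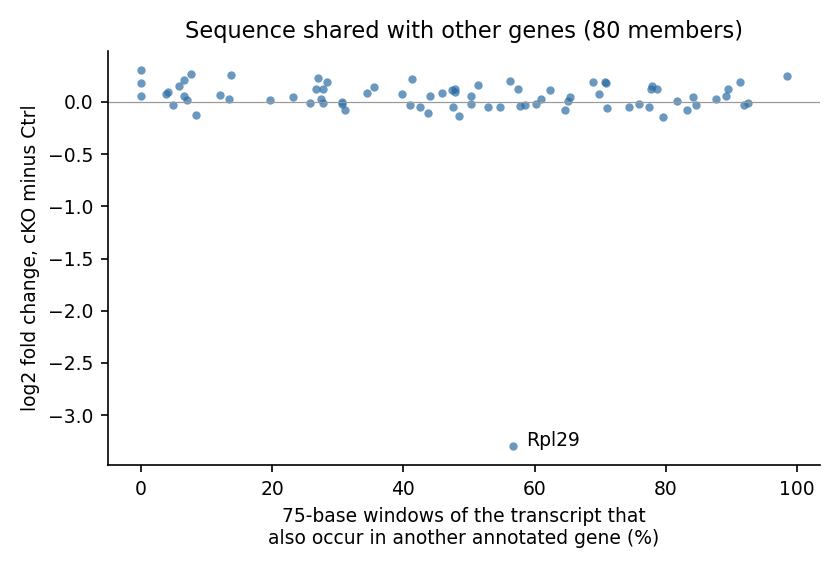
Log2 difference between cKO and Ctrl against the percentage of 75-base windows that also occur in another annotated gene, 1 point for each of 80 members. Rpl29, at 56.8%, lies at -3.30, and the other members lie between -0.14 and 0.31 at any share.

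Among the members, the fall of Rpl29 stood alone. Of the 84 members, 1 passed an adjusted p of 0.05, Rpl29 itself, against 0.663% of all tested genes. Since Rpl29 was chosen on this contrast, nothing is read from that share. The log2 differences of the other 83 members lay between -0.14 and 0.31 around a median of 0.05, with 53 higher and 30 lower in cKO. The median of all tested genes was -0.04.

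Of these 83 members, 0 passed by limma, and 0 had an unadjusted p under 0.05, against 6.02% of all tested genes. With the replicate number as a block 0 passed, against 2.87% of tested genes, and 3 had an unadjusted p under 0.05, against 12.6%. The edgeR quasi-likelihood test on the recovered reads called 0 of them, where it called 0.255% of tested genes, or 2.99% with the block. DESeq2 called 0 of the 80 for which it gave an adjusted p, against 4.72% of genes, and limma on replicates 1 and 2 called 0, against 1.85%. The authors' deposited table had 1 member past an adjusted p of 0.05, against 0.801% of its genes, with a log2 fold change of -3.28 for Rpl29 and values from -0.08 to 0.65 for the others.

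A missed threshold does not show that the other members were unchanged, so their intervals matter. For the 79 members at 10 CPM or more in Ctrl, the 95% intervals of the log2 difference reached at lowest -0.56, for Rpsa, and at highest 0.70, for Rpl9. For the other 4, Rpl39l, Rps3a2, Rps3a3 and Rps4y2, they reached from -1.23 to 1.55. No interval among the 83 came near the -3.30 of Rpl29.

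**Figure D3:**
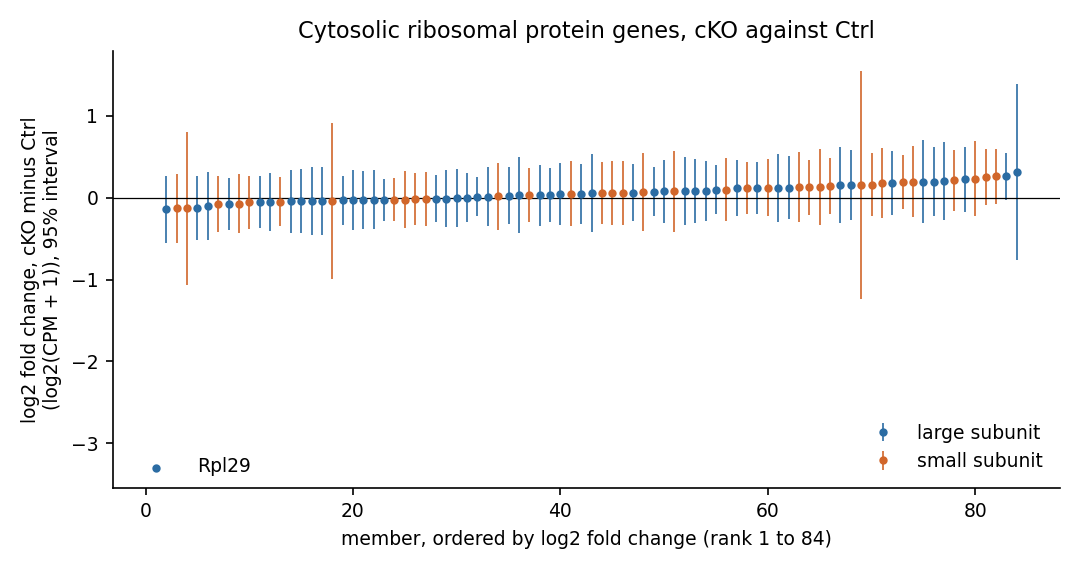
Log2 difference between cKO and Ctrl of the 84 members in rank order, large subunit in blue and small subunit in orange; bars are 95% intervals from limma, and Rpl29, chosen on this difference, is drawn without one. Apart from Rpl29 the points lie between -0.14 and 0.31, and every interval drawn covers 0.

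At the lower end, Rpl13, a large subunit protein, was at 1245, 1232 and 1467 CPM in Ctrl and at 1101, 992 and 1532 CPM in cKO. Rpsa, which sits by the mRNA exit of the small subunit and is also known as a laminin receptor, was at 723, 707 and 820.0 CPM against 599.7, 585 and 907 CPM. Rps3a2, a pseudogene in M21, had 2.14, 2.54 and 2.87 CPM against 1.73, 2.02 and 2.95 CPM. In each the cKO libraries of replicates 1 and 2 were the lowest and cKO replicate 3 the highest, so the groups overlapped. Their log2 differences were -0.14, -0.13 and -0.13.

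The largest positive differences were no less mixed. Rpl39l, a paralogue of Rpl39 best known from testis, had 1.78, 0.682 and 1.17 CPM in Ctrl and 1.42, 1.17 and 2.69 CPM in cKO, a log2 difference of 0.31 ± 0.45 (SE, n = 3). Rpl39, which lines the exit tunnel for the growing peptide, had 85.1, 94.5 and 79.3 CPM against 100.2, 93.1 and 118 CPM, with a limma adjusted p of 0.916, the smallest among the 83. Rps24 was at 319, 317 and 303 CPM against 349, 325 and 464 CPM, and Rps27 at 587, 626 and 518 CPM against 642, 596 and 830.4 CPM. Of these 4 genes, only Rps24 had groups that did not overlap.

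Groups did not overlap for 3 of the 84 members, against 11.0% of all tested genes. Rpl29 was lower in cKO, where 7.10% of tested genes were. Rps24 and Rps27a, which encodes ubiquitin fused to a small subunit protein, were higher, where 3.89% of tested genes were. Rps27a stood at 210.2, 211 and 211 CPM in Ctrl and at 218, 212 and 299.5 CPM in cKO. In both genes the excess was largest in cKO replicate 3.

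Levels differed widely between members. In CPM, Rpl4, which lines the exit tunnel, was the most abundant in Ctrl with 1325 ± 159 CPM (SD, n = 3), and other abundant members were Rpl13 with 1315 ± 132, Rplp0 with 1178 ± 159 and Rpl32 with 1090.1 ± 25.2. Neighbours in that order differed by less than the larger of their SDs. In cKO these 4 genes averaged 1225 ± 264, 1208 ± 285, 1221 ± 330 and 1247 ± 381 CPM (SD, n = 3), so none of them differed between groups beyond the spread. At the bottom were Rpl39l with 1.21 ± 0.552, Rps3a3 with 1.44 ± 0.0973 and Rps3a2 with 2.52 ± 0.365 CPM in Ctrl (SD, n = 3).

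Per kilobase of transcript, with 1 annotated transcript taken per gene, the median Ctrl level of the 80 annotated members was 351 CPM per kb. Such levels and ranks depend on that choice. For Rps15a, for example, the transcript had 5130 bases, of which 390 were coding, so 215 CPM became 41.8 CPM per kb. Rpl32 led with 2108.5 CPM per kb and Rpl39l was last with 1.51. Rpl29, at 238 CPM per kb, ranked 55 of 84 in Ctrl, below the median of the members.

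Of the members, 5 are named as close relatives of another member, although Rps4y2, the relative of Rps4x, is a pseudogene in M21. Per kilobase, Rpl22l1 was at 40.7% of its parent Rpl22 in Ctrl and 39.0% in cKO, a pair of interest because Rpl22 is needed for normal alpha-beta T cell development. Rpl7l1 was at 15.6% of Rpl7 in Ctrl and 16.6% in cKO. Rps27l, a p53 target, was at 7.24% of Rps27 and 6.49%, Rps4y2 at 1.81% of Rps4x and 1.85%, and Rpl39l at 1.07% of Rpl39 and 1.29%. These shares overlapped between the groups in each of the 5 pairs when taken library by library, as for Rpl22l1, which ran from 37.5% to 44.2% of Rpl22 in Ctrl and from 37.0% to 40.6% in cKO. These 5 genes and their parents all missed the threshold. Rpl3l and Rpl10l were not analysed here.

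By place in the ribosome, 4 lists were read, none of which includes Rpl29, and none held a member past the threshold. The P stalk, which recruits the GTPases of translation, is formed by Rplp0, Rplp1 and Rplp2 on a base with Rpl12, and their log2 differences lay between 0.03 and 0.12. Rpl5 and Rpl11, which with 5S ribosomal RNA can bind the p53 regulator Mdm2, had -0.01 and 0.03. The 9 proteins of the exit tunnel and its rim ran from -0.13 for Rpl4 to 0.26 for Rpl39. The 5 small subunit proteins at the mRNA entry and exit ran from -0.13 for Rpsa to 0.18 for Rps3. In each of these 4 lists 0 genes passed, with or without the block; over all tested genes the shares were 0.663% and 2.87%, so in lists of 2 to 9 genes such a count says little. The large subunit without Rpl29 had a median of 0.03 over 48 members and the small subunit one of 0.07 over 35.

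The small positive median of the family rested on replicate 3. In cKO replicate 3 the members were higher than in any other library for 79 of 84, or 94.0%, against 15.9% of all tested genes. The exceptions were Rpl29, Rps29, Rpl30, Rpl24 (the Zbtb11 row) and Rps4y2. That library was also highest for 46 of 76 mitochondrial ribosomal protein genes, 6 of 7 translation elongation factors and 15 of 30 initiation factors. It was highest for 5 of 38 ribosome biogenesis factors, 2 of 10 S6 kinases and 1 of 15 regulators of ribosomal protein synthesis. Summed over the 84 members, Ctrl libraries held 29033, 29474 and 31540 CPM and cKO libraries 28339, 26391 and 39585 CPM. The sum in cKO replicate 3 was therefore 125.5% of that in Ctrl replicate 3, while in replicates 1 and 2 it was 93.5% of Ctrl. Over all 3 replicates the sums were 30016 ± 1338 and 31439 ± 7122 CPM (SD, n = 3), which overlap.

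Taken by replicate number, where each difference rests on 1 library per group, the median log2 difference of the 84 members was -0.03 in replicate 1, -0.18 in replicate 2 and 0.32 in replicate 3. All tested genes had medians of 0.01, -0.05 and 0.00. In replicate 3, 5287 of the 15691 tested genes were higher, 7751 were lower and the rest, no member among them, had a difference of 0. These ties set that median at 0.00. They also lower the shares of tested genes given below for replicate 3 and for 1 sign throughout. In replicates 1 and 2 together, 70 of the 84 members were lower in cKO, against 54.2% of tested genes, with a median of -0.10. In replicate 3, 82 of the 84 were higher, against 33.7% of tested genes. Rpl29 and Rps4y2 were the exceptions there. The direction of the family median thus turned with the library: without cKO replicate 3 it was -0.12. Of the 84 members, 6 kept 1 sign in all 3 replicates, against 4706 of the 15691 tested genes. Rpl29 was lower throughout, with -3.33, -3.46 and -3.11, while Rps7, Rps24, Rps27a, Rpl13a and the Zbtb11 row were higher in each; Rps24, for example, had 0.13, 0.03 and 0.61.

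**Figure D4:**
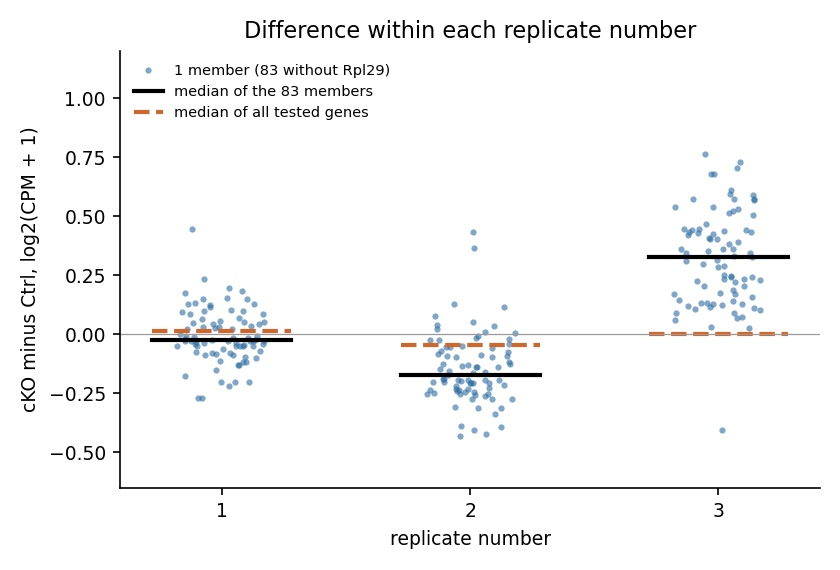
Difference between cKO and Ctrl in log2(CPM + 1) within each replicate number, 1 point per member without Rpl29 (83); the black bar is their median and the dashed orange bar the median of all 15691 tested genes. The members lie around or below 0 in replicates 1 and 2 and almost all above 0 in replicate 3.

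Members outside the name rule behaved likewise. Fau, Rack1, Rpl36al and the retrogenes Rps27rt and Rpl37rt had log2 differences from 0.02 to 0.22, 0 of these 5 passed, and all 5 were highest in cKO replicate 3. Genes of the mitochondrial ribosome, a separate particle, had a median of -0.05, with 27 higher, 49 lower and 0 of 76 past the threshold. Ribosome biogenesis factors had a median of -0.11, with 7 higher, 31 lower and 0 of 38 past it. Among translation initiation factors 14 were higher and 16 lower, among elongation factors 2 and 5, and among S6 kinases 2 and 8; 0 passed in each list. Of 15 tested regulators of ribosomal protein synthesis, among them Myc, Mtor and Larp1, 3 were higher, 12 lower and 0 past the threshold. With the replicate block too, these lists had 0 genes past it. Of all 15691 tested genes, 6426 were higher and 9265 lower, and 0.663% passed, or 2.87% with the block.

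Of 10 other messages known for a TOP start, 0 passed the threshold as tested, against 0.663% of all genes, and 1 passed with the block, against 2.87%. That gene was Vim, which encodes the intermediate filament protein vimentin. It was at 489, 411 and 345 CPM in Ctrl and 221, 149.6 and 159 CPM in cKO, groups that did not overlap (limma adjusted p = 0.0520, and 0.000184 with the block). Vim lay close to the threshold, and it also passed without a block in 6 settings, namely TMM scaling, a pseudocount of 5, no filter on low values, DESeq2, replicates 1 and 2 alone, and without cKO replicate 1. The other 9 had log2 differences from -0.20 to 0.11, and 0 of them passed either way.

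A pyrimidine start was sought in the RefSeq promoter windows of GRCm38.p6, which were found for 60 members. The motif was a C followed by at least 4 bases that are each C or T, on the strand of the gene. It began at the annotated start in 13 of the 60 (21.7%), against 3.01% of 27025 genes in that table, and within 5 bases of it in 29 (48.3%), against 21.2%. Windows of 30 bases, 10 before and 20 from the start on, are shown for some members near either end of the ranking. Rpl39l, with the highest difference, and Rpl4, which ranks between Rpsa and Rpl28, had windows without a run and are not shown. The match that begins nearest the start is in capitals. Where C or T bases stand directly before it, the pyrimidine run is longer than the capitals.
Rpl13, chr8:123102340-123102369, plus strand: tttcgcctgattttgattggcgtttgagat
Rpsa, chr9:120127756-120127785, plus strand: ttatttaaggacgtcatttccggccgcccg
Rpl28, chr7:4792955-4792984, plus strand: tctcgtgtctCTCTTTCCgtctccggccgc
Rps27, chr3:90213629-90213658, minus strand: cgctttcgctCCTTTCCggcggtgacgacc
Rps24, chr14:24490668-24490697, plus strand: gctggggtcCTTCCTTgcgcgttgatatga
Rpl39, chrX:37085203-37085232, minus strand: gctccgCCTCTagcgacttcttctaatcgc

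Members with such a run (29) had a median log2 difference of 0.07 and a range from -0.10 to 0.26, and those without (31) a median of 0.03 and a range from -0.14 to 0.31. The ranges overlap almost entirely. A match describes these letters only, and Rpl29 had no window in that table.

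On its chromosome Rpl29 did not stand alone. Tgfbr2, the floxed gene, is also on chromosome 9 (chr9:116087698-116175363), and its start lies 9.66 Mb from that of Rpl29. Of the 10 nearest tested genes, 5 on each side, 3 passed the threshold and 4 passed with the replicate block, against 0.663% and 2.87% of all tested genes. This set and the chromosome windows below were chosen after other values had been seen.

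Abhd14b, which encodes an alpha/beta hydrolase fold protein and starts 18.3 kb beyond the start of Rpl29, was at 12.9, 9.94 and 6.95 CPM in Ctrl. In cKO it had 0.243, 0.190 and 0.0294 CPM, or 7, 8 and 2 reads. Its log2 difference was -3.21 ± 0.41 (SE, n = 3; limma adjusted p = 0.0281). Abhd14a, its paralogue and neighbour, went from 16.1, 16.3 and 19.5 CPM to 3.71, 3.54 and 4.52 CPM, or 22.7% of Ctrl (limma adjusted p = 0.0122). Neither gene had a cKO library that reached the lowest Ctrl value.

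On the other side, Ppm1m, a protein phosphatase gene, was higher in cKO: 61.6, 60.0 and 73.5 CPM stood against 108, 123 and 106.9 CPM (limma adjusted p = 0.0410). Dusp7, a phosphatase of ERK kinases, was at 150.2, 148 and 122 CPM against 208, 195.5 and 229 CPM and missed the threshold (limma adjusted p = 0.124). It passed with the block (limma adjusted p = 0.0254), and without a block by DESeq2 (adjusted p = 0.000105) and in replicates 1 and 2 alone (limma adjusted p = 0.0308). The genes in between were mixed. Acy1, whose start is 3.53 kb from that of Rpl29, had 12.99, 11.4 and 14.5 CPM against 19.5, 20.98 and 12.1 CPM, and its groups overlapped. With 1 library left out, Abhd14a passed in 2 of 6 fits, Abhd14b in 1 and Ppm1m in 0, with adjusted p-values up to 0.122, 0.223 and 0.232. By the quasi-likelihood test of edgeR, with no block, all 3 missed the threshold, with adjusted p-values of 0.0569, 0.0986 and 0.0827. Ppm1m also missed it with TMM scaling (limma adjusted p = 0.0968) and by limma-voom (adjusted p = 0.0612), as did Abhd14b by limma-voom (adjusted p = 0.9998).

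Within 10 Mb of Tgfbr2, 10 of 216 tested genes passed (4.63%), and elsewhere on chromosome 9 it was 6 of 661 (0.908%). Among the 10 were Tgfbr2, Rpl29 and the neighbours Abhd14a, Abhd14b and Ppm1m, already counted above. With the replicate block the counts were 19 (8.80%) and 16 (2.42%), and the 19 held these genes and Dusp7. The shares are therefore not separate from the choice of Rpl29, and nothing is read from their difference. The window also holds chemokine receptor genes, of which Ccr2 and Ccr8 were among the 10. The other ribosomal protein genes of chromosome 9 did not follow Rpl29. Rpsa and Rpl14, 4.04 and 4.48 Mb beyond the start of Tgfbr2, had log2 differences of -0.13 and -0.04. Rps25, Rplp1, Rpl4 and Rps27l, farther off, had -0.02, 0.08, -0.13 and 0.07, and all 6 missed the threshold. The floxed allele and the chromosome segment around it are present together in the cKO group. Differences that go with the targeting of Tgfbr2 and differences that go with that segment therefore cannot be told apart.

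**Figure D5:**
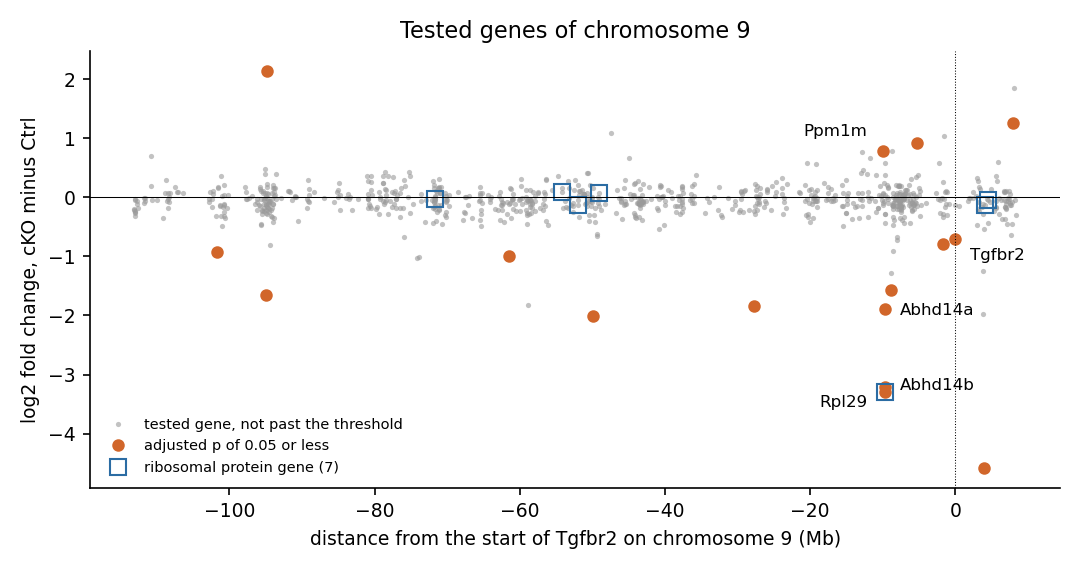
Log2 difference between cKO and Ctrl of the tested genes of chromosome 9 against the distance of their start from that of Tgfbr2 in Mb; orange points passed an adjusted p of 0.05 and blue squares are the 7 ribosomal protein genes. Rpl29, Abhd14a, Abhd14b and Ppm1m lie close together about 10 Mb from Tgfbr2, while the other 6 ribosomal protein genes lie near 0.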

How the data were processed

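RNA-seq was made from 3 Ctrl and 3 cKO libraries of thymic iNKT1 cells, read at 75 bases. Per the submitters' processing notes, Trimmomatic 0.33, STAR 2.5.2, HTSeq 0.6.1 and edgeR were used with build mm10; how reads with several matches were treated is not given in the sources used here. Per the file headers, the authors deposited CPM for each library. Their comparison of the groups is deposited beside it as a log2 fold change and an average log2 level, a score (the likelihood ratio), and a p-value before and after adjustment. The columns named WT and KO were taken as Ctrl and cKO by tissue and replicate number.

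The deposited CPM values were whole multiples of 1 read: 100% came out whole within 0.001 reads. No pair of libraries of a group agreed within sampling noise in a chi-square test. One read was worth 0.0147 to 0.0347 CPM. Reads carry no molecular identifiers, so depth covers counting error only.

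The main test was limma 3.58.1 (R 4.3.3) on log2(CPM + 1), group as the only term, mean-variance trend and robust moderation, for genes that averaged 1 CPM or more. It was tested on simulated data. Members and lists were chosen with earlier results of these data known. Named genes were Rpl29, its copies, the members with the 4 largest and 4 smallest differences, the 5 highest and 3 lowest in Ctrl, and paralogue pairs; chromosome 9 neighbours were added later. A few of the genes so selected were left out of the text. Alternatives were the block, scaling by TMM or upper quartile, pseudocounts of 0.5 and 5, no filter, edgeR 4.0.16, DESeq2 1.42.0, limma-voom, fewer libraries, and copies added to their gene.

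Both groups share replicate numbers. Deviations from the group means correlated at 0.855, 0.688 and 0.924 between libraries of the same number, each over 0.1, so the numbers were taken to pair the libraries. Ctrl replicate 2 correlated more with cKO replicate 1 (0.718) than with cKO replicate 2. Ctrl replicate 1 with cKO replicate 2, at 0.579, was over 0.1 as well. Replicate 3 correlated negatively with the others, so the values mainly set replicate 3 apart. They cannot show that replicates 1 and 2 are paired by number. The fit with the block is printed where it changed a call.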

Additional observations from a re-analysis of the deposited data

How the results depend on the processing

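Of the members other than Rpl29, which was chosen on this contrast, 0 passed in any of the 19 alternatives, with a smallest adjusted p of 0.117 for Rpsa in replicates 1 and 2 alone (limma). The log2 difference of Rpl29 was -3.03 with a pseudocount of 5 and -1.97 with all copies added to it. The sum of Rpl29 and Gm8210, at -2.30, also became -1.97 there. The other settings moved these values by less than the spread between replicates, as they did the summed level of the members. The median of the members stayed within that spread, yet its sign depended on cKO replicate 3: it ran from -0.12 to 0.15 when 1 library was left out, and was 0.12 with TMM scaling and with edgeR.

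The number of all genes past the threshold was 104 and depended on the fit, and the cause was not tested: 451 with the replicate block, 514 with TMM and the block, 40 by edgeR's quasi-likelihood test, 469 by that test with the block, 554 by DESeq2, 61 by limma-voom and 291 in replicates 1 and 2. It ran from 14 to 85 when 1 library was left out. The block changed the calls of Gm13841, Vim and Dusp7 among the genes named and of no member. Dusp7 and Vim passed in some settings without it too. Tgfbr2 and Ppm1m missed the threshold with TMM scaling, and these with Abhd14a and Abhd14b by edgeR, all without the block. Reads shared among Rpl29, its copies and genes without rows in the table limit what can be said of each and of their sum.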

Other observations

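A copy of another member varied between libraries in a way its gene did not. Gm6472, on chromosome X and 99.4% identical to Rps7, was at 18.3, 34.0 and 2.87 CPM in Ctrl and at 2.81, 2.64 and 3.50 CPM in cKO. Rps7 itself was at 454, 416 and 555 CPM in Ctrl and at 503, 452 and 689 CPM in cKO. Neither passed the threshold in limma over all 6 libraries (adjusted p = 0.843 for Gm6472), while in replicates 1 and 2 alone Gm6472 was lower in cKO (limma adjusted p = 0.00198). Gm9493, also 99.5% identical to Rps7, was at 2.02, 2.27 and 2.62 CPM in Ctrl and 2.18, 2.02 and 2.47 CPM in cKO.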
